A study of Mus musculus with 8 samples.

Results

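The 8 genes described here encode secreted proteins with which mucosal surfaces meet microbes and damage: Pglyrp1, Slpi, Cxcl17, S100a8, S100a9, Lcn2, Ltf and Il1b. They were chosen by name, with the higher signal of KPAW over wild-type eyes at 1 month in these same arrays already known, so their values in that comparison are given as a description with no test. Each of the 8 genes had 1 probe set carrying its symbol alone, so the 8 genes, of 12393 named by a probe set of their own, stand for 8 of the 22690 probe sets in the table. The data are signals from Affymetrix-type mouse expression arrays hybridized with total RNA from eyes, with a pair of arrays, I and II, for every one of the 4 groups. The groups were KPAW eyes at 1 month, wild-type eyes at 1 month, KPAW eyes at 5 days and wild-type eyes at 5 days. The 5-day wild type is labelled C57Bl6, and the labels give no strain for the other groups and no meaning, allele or construct for KPAW. Nothing states that the 2 arrays of a group came from separate animals, so p-values measure only the spread between arrays, which may be technical. The 2 KPAW arrays did differ in sex-linked transcripts at 5 days and in rod transcripts at 1 month.

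Epithelia that face the outside secrete proteins that kill microbes directly or starve them of metals, and they keep some intracellular proteins ready to be released as alarm signals. The peptidoglycan recognition protein encoded by Pglyrp1 binds the bacterial cell wall. Lactoferrin (Ltf) binds iron, lipocalin 2 (Lcn2) binds the siderophores with which bacteria collect iron, and the S100a8 and S100a9 subunits pair into calprotectin, which binds zinc and manganese. Slpi inhibits serine proteases such as neutrophil elastase, Cxcl17 is a chemokine of mucosal tissue, and Il1b is a cytokine that needs cleavage to act. In the eye such proteins are known from the tear film, conjunctiva and cornea, while S100a8, S100a9, Lcn2, Ltf and Il1b are also abundant in neutrophils or other myeloid cells.

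The arrays were scaled to a common trimmed mean, and all values below are scaled signals unless called deposited. Replicates correlated across probe sets at 0.927 in KPAW eyes and 0.969 in wild-type eyes at 1 month, and at 0.946 in KPAW eyes and 0.964 in wild-type eyes at 5 days. KPAW I at 1 month stood apart by a near absence of rod transcripts. Its 6 rod markers summed to 0.466, against 25.6 in KPAW II and 22.9 and 27.9 in wild type I and II. KPAW I at 5 days differed from the other 5-day arrays in its sex-linked transcripts. Its deposited Xist signal was 0.0708, against 3.48 in KPAW II and 2.71 and 2.88 in wild type I and II at that age. At 1 month Xist lay between 0.0548 and 0.115 on all 4 arrays, so the wild-type groups of the 2 ages also differ in it. The Y-linked gene Eif2s3y was listed at 0.01 in the 3 arrays with high Xist and read 0.0883 to 0.191 in the other 5. The lens crystallin Cryaa was bright on every array, from 6.31 to 9.88.

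The promoters of 7 of the 8 genes were in the RefSeq table for GRCm38.p6, as 250 bases before and 50 bases after an annotated start site. The promoters of S100a8 and S100a9 are shown because these neighbouring genes on chromosome 3 had profiles as close as any pair of the 8, that of Pglyrp1 because it alone of the 8 passed the test with age, and that of Slpi because it separated the KPAW and wild-type eyes at 1 month with little spread. Capitals mark matches to 5 motifs: TATAAA on the gene's strand, and, on both strands, TTGCNNAA for C/EBP factors, the NF-kB consensus (the capitals in Pglyrp1), the AP-1 site TGANTCA and the STAT site TTCNNNGAA.
S100a8 (chr3:90668821-90669120, + strand): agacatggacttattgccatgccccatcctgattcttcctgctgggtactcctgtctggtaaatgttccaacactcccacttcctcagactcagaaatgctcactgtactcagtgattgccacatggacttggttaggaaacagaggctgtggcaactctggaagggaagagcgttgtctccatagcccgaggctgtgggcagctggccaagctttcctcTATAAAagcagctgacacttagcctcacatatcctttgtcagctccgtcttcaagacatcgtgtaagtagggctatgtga
S100a9 (chr3:90695672-90695971, - strand): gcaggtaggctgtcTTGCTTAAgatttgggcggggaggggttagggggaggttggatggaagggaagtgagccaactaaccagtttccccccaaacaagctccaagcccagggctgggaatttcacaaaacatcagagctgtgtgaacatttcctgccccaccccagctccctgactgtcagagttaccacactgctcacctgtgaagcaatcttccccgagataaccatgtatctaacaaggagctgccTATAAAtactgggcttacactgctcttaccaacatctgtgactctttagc
Pglyrp1 (chr7:18884440-18884739, + strand): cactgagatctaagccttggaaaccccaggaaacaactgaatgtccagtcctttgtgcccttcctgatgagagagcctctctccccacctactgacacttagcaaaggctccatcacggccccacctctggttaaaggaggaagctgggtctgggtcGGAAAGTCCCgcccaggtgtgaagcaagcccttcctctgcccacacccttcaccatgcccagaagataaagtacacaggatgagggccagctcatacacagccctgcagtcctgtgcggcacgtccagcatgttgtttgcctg
Slpi (chr2:164356458-164356757, - strand): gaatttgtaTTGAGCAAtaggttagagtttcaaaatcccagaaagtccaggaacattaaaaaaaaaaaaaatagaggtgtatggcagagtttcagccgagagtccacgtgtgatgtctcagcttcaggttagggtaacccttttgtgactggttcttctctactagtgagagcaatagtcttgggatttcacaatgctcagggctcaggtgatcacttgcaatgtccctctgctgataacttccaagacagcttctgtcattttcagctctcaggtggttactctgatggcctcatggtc
The TATAAA match lay 30 bases before the annotated start in S100a8 and 31 before it in Il1b, and began at the start itself in S100a9. A TTGCNNAA match was present in Slpi, S100a9, Lcn2 and Ltf, and the NF-kB match was present in Pglyrp1, 93 bases before the start. No match to the AP-1 or STAT letters was found in these 7 windows. Over all 32851 promoters in the table, 8.32% held TATAAA, 10.8% the C/EBP letters, 1.2% the NF-kB letters, 7.81% the AP-1 letters and 8.3% the STAT letters. These matches describe the sequence and were not tied to the array values.

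At 1 month all 8 genes were brighter in both KPAW arrays than in both wild-type arrays. Of all 15838 probe sets tested, 17% had both KPAW arrays brighter than the wild-type pair and 19.6% had both dimmer. Nothing is read from this count, since the genes were chosen with this comparison known. The median log2 difference of the 8 genes was 1.81, and that of all probe sets tested was -0.01. In the same comparison 4 of the 15838 probe sets passed in limma, which is 0.0253%. The size and the regularity of the difference varied from gene to gene, and the plot of signals by array shows both.

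**Figure D1:**
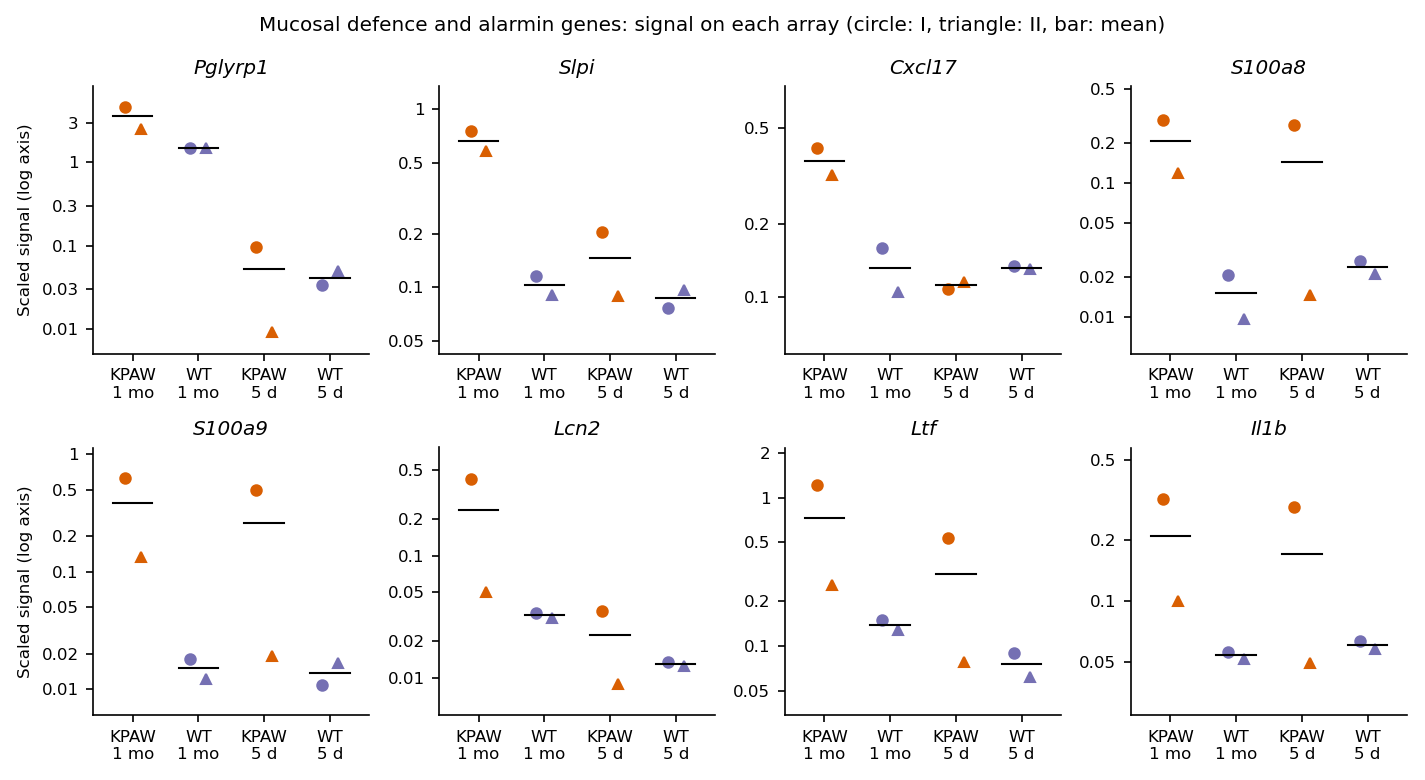
Scaled signal of each gene (log axis, array units) on the 8 arrays in the 4 groups, with a circle for array I, a triangle for array II and a bar for the mean of the 2. At 1 month the 2 KPAW arrays lie above the 2 wild-type arrays for all 8 genes, and at 5 days KPAW I alone is high for S100a8, S100a9, Ltf and Il1b.

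Slpi, the protease inhibitor, had signals of 0.750 and 0.584 in KPAW I and II at 1 month, against 0.116 and 0.0905 in wild type I and II. At 5 days it read 0.204 and 0.0892 in KPAW I and II, and 0.0766 and 0.0973 in wild type I and II. The 1-month KPAW pair thus stood above all 6 other arrays, and the other groups overlapped one another. Its mean was 0.667 ± 0.118 in KPAW eyes and 0.103 ± 0.0181 in wild-type eyes at 1 month (SD, n = 2 each), a ratio of 6.46 and a log2 difference of 2.47. KPAW I and II lay 2.64 and 2.29 above the wild-type mean on the log2 scale.

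Cxcl17, the mucosal chemokine, was nearly level outside the 1-month KPAW eyes. Its signals were 0.413 and 0.319 in KPAW I and II at 1 month, against 0.159 and 0.105 in wild type I and II. At 5 days they were 0.108 and 0.116 in KPAW eyes and 0.134 and 0.130 in wild-type eyes. The means at 1 month were 0.366 ± 0.0662 in KPAW and 0.132 ± 0.0377 in wild type (SD, n = 2 each), a ratio of 2.77. At 5 days both KPAW arrays lay below both wild-type arrays, the reverse of 1 month, but the gap was small, with a log2 difference of -0.21 (SE 0.20, limma adjusted p = 1).

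Pglyrp1, the peptidoglycan binder, was already bright in the wild-type eye at 1 month. It read 4.63 and 2.55 in KPAW I and II, against 1.48 and 1.51 in wild type I and II. At 5 days it was dim everywhere, at 0.0966 and 0.00901 in KPAW I and II and 0.0334 and 0.0490 in wild type I and II, with KPAW II at the lowest listed value of 0.01 before scaling. The order of the groups was KPAW at 1 month, wild type at 1 month, and then both 5-day groups, which overlapped. The ratio of KPAW to wild type at 1 month was 2.41, the smallest of the 8, on means of 3.59 ± 1.47 and 1.49 ± 0.0225 (SD, n = 2 each).

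S100a8 and S100a9, the calprotectin subunits, were close to the lowest listed value in every wild-type array. S100a8 read 0.294 and 0.118 in KPAW I and II at 1 month, against 0.0207 and 0.00963 in wild type I and II. S100a9 read 0.634 and 0.133 in KPAW I and II, against 0.0180 and 0.0122 in wild type I and II. The log2 difference at 1 month was 2.55 for S100a8 and 3.14 for S100a9, the largest of the 8. Both wild-type groups lay near or below the pseudocount of 0.0211, so the size of these differences depends on it. The probe set of S100a8 is of a kind designed to match more than 1 transcript, so its signal may include a related sequence.

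The iron-withholding proteins showed the widest gap between the KPAW arrays at 1 month. Lcn2 signals were 0.423 and 0.0509 for KPAW I and II, against 0.0343 and 0.0307 in wild type I and II. Ltf signals were 1.21 and 0.259 for KPAW I and II, against 0.150 and 0.128 in wild type I and II. KPAW II therefore lay only 0.43 above the wild-type mean for Lcn2 and 0.81 above it for Ltf on the log2 scale, while KPAW I lay 3.05 and 2.95 above it.

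Il1b, the cytokine, followed the same order, at 0.320 and 0.100 in KPAW I and II at 1 month, against 0.0558 and 0.0518 in wild type I and II. KPAW I lay 2.19 and KPAW II 0.70 above the wild-type mean on the log2 scale. In KPAW I at 1 month all 8 genes lay more than 1 log2 unit above the wild-type mean, as did 2.01% of all probe sets tested. In KPAW II this held for 4 genes, Slpi, Cxcl17, S100a8 and S100a9, and for 0.625% of the probe sets. The median over the 8 genes was 2.80 in KPAW I and 0.99 in KPAW II, so KPAW I carried most of the group difference for Lcn2, Ltf and Il1b.

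**Figure D2:**
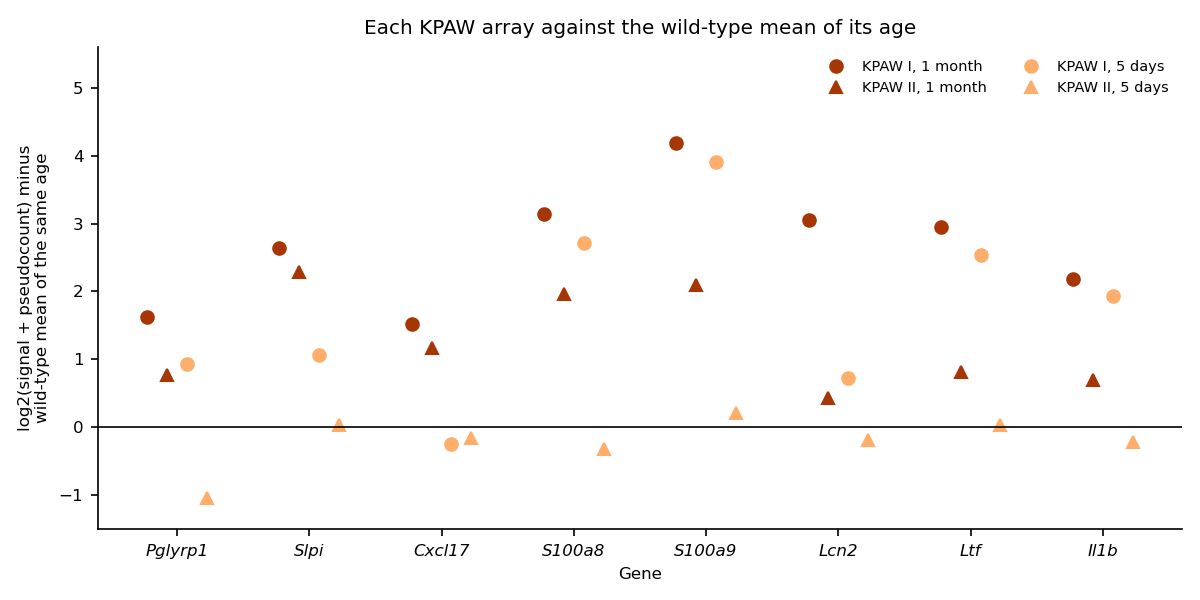
Each KPAW array (1 month dark, 5 days light, circle for I and triangle for II) as log2(signal + pseudocount) minus the wild-type mean of the same age, for the 8 genes. All 1-month points lie above 0, from 0.43 for Lcn2 in KPAW II to 4.18 for S100a9 in KPAW I, and at 5 days KPAW I reaches 3.90 for S100a9 while KPAW II stays between -1.04 and 0.21.

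At 5 days no gene of the 8 passed the test between KPAW and wild-type eyes, and the 2 KPAW arrays diverged. No probe set passed in limma (0 of 15838, or 0%), and 378 had an unadjusted p under 0.05, none of them a probe set of the 8 genes, whose lowest unadjusted p was 0.0932 for S100a9. Of the 8 genes, 1 had both KPAW arrays above both wild-type arrays (S100a9), where 16.8% of all probe sets did, and 1 had both below (Cxcl17), where 16.6% did. The median log2 difference of the 8 was 0.70 and that of all probe sets 0.01. This median came from 1 array, since it was 1.50 in KPAW I and -0.17 in KPAW II.

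In KPAW I at 5 days 4 of the genes lay between the signals of the 1-month KPAW arrays. S100a9 signals were 0.498 and 0.0191 for KPAW I and II, against 0.0109 and 0.0167 in wild type I and II, the first of these wild-type values being the lowest listed. S100a8 read 0.271 and 0.0147 in KPAW I and II, against 0.0263 and 0.0211 in wild type I and II. Ltf read 0.537 and 0.0775 in KPAW I and II, against 0.0895 and 0.0617 in wild type I and II. Il1b read 0.291 and 0.0490 in KPAW I and II, against 0.0632 and 0.0581 in wild type I and II. For these 4 genes KPAW II lay within 0.32 log2 units of the wild-type mean, while KPAW I lay between 1.93 and 3.90 above it. The group differences were 2.05 for S100a9 (SE 1.08), 1.29 for Ltf (SE 0.84), 1.19 for S100a8 (SE 0.84) and 0.86 for Il1b (SE 0.67), each with a limma adjusted p of 1. KPAW I, the high array, was also the one with low Xist at this age, and the part of that difference in these values was not tested. Slpi (0.55, SE 0.32), Lcn2 (0.27, SE 0.72) and Pglyrp1 (-0.05, SE 0.56) did not pass either. S100a8 and S100a9 averaged at most 0.0237 in either wild-type group, under the minimum mean signal of 0.0406, so they were tested only through KPAW arrays. Lcn2 was at the lowest listed value in KPAW II and wild type II and read 0.0356 in KPAW I. It entered the test only through its 1-month KPAW signals, since its other 6 arrays averaged 0.0227, under the minimum mean signal of 0.0406, and with no such minimum its adjusted p was 1 at 5 days and 0.58 with age.

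On the log2(signal + pseudocount) scale the replicates of KPAW eyes were far apart on these genes, and those of wild-type eyes were not. The pseudocount narrows gaps between dim signals. S100a8 read 0.0207 and 0.00963 in wild type I and II at 1 month, a gap of 0.44 on this scale. Lcn2 read 0.0356 and 0.00901 in KPAW I and II at 5 days, a gap of 0.91. At 1 month 5 of the 8 genes differed by more than 1 log2 unit on this scale between KPAW I and II, as did 3.63% of all probe sets tested. None differed so much on it between the wild-type arrays, where 1.05% of all did. At 5 days 6 of the 8 differed by more than 1 log2 unit between the KPAW arrays (2.76% of all), and none between the wild-type arrays (1.41% of all). KPAW I was the higher array for 8 of 8 genes at 1 month and for 7 of 8 at 5 days, with Cxcl17 as the exception. The numbers I and II are not stated to link arrays of different ages.

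With age in wild-type eyes 1 of the 8 genes changed. Pglyrp1 rose to a mean of 1.49 ± 0.0225 at 1 month, against 0.0412 ± 0.0110 at 5 days (SD, n = 2 each), a ratio of 36.2 and a log2 difference of 4.61 (SE 0.56, limma adjusted p = 0.00202). In this contrast 18.1% of all probe sets passed, 8.73% higher and 9.33% lower at 1 month. The contrast shares its 1-month arrays with the one that chose the genes. In these wild-type arrays age, the difference in Xist and Eif2s3y and any difference in strain cannot be told apart. Only the 5-day wild type carries a strain label. The other 7 did not pass, at log2 differences of 0.74 (SE 0.84) for Ltf, 0.65 (SE 0.72) for Lcn2, 0.20 for Slpi, 0.05 for S100a9, -0.02 for Cxcl17, -0.13 for Il1b and -0.32 for S100a8, with adjusted p between 0.568 and 0.979. Both 1-month arrays lay above both 5-day arrays for 3 genes, Pglyrp1, Lcn2 and Ltf (32.5% of all probe sets), and below them for 2, S100a8 and Il1b (33% of all). The Ltf signals were 0.150 and 0.128 at 1 month and 0.0895 and 0.0617 at 5 days, and Ltf passed when only the wild-type arrays were fitted (adjusted p = 0.0415).

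In KPAW eyes the same change with age is given without a test, because it rests on the 1-month KPAW arrays. Both 1-month arrays lay above both 5-day arrays for 4 genes, Pglyrp1, Slpi, Cxcl17 and Lcn2, as they did for 25.3% of all probe sets. None of the 8 had both 1-month arrays below both 5-day arrays, and 32.2% of all probe sets did. S100a8, S100a9, Ltf and Il1b overlapped between the ages, since KPAW I at 5 days exceeded KPAW II at 1 month for each of them. The log2 difference with age was 5.86 for Pglyrp1 in KPAW eyes, beside 4.61 in wild-type eyes. For Slpi it was 2.12 in KPAW eyes and 0.20 in wild-type eyes.

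Genes with the most similar profiles over the 8 arrays were found for each of the 8 by the root mean square difference of centred log2 values, among 9484 genes. The genes searched had passed the minimum mean signal. Pigr, Serpinb2, Cxcl2, Tmem87a, AW112010 and Chad did so only through their 1-month KPAW signals, so their likeness in that group was partly fixed in advance. Sprr2h, Sprr2f and Ppbp read no more than 0.0189 outside the 1-month KPAW arrays and KPAW I at 5 days. Like Sult2b1, they passed only through KPAW arrays, so their likeness there was also partly fixed in advance. S100a8 lay closest to Sprr2h (0.17 log2 units), Sprr2f (0.36) and Serpinb2 (0.41). The first 2 encode small proline-rich proteins of cornified epithelium and the last a serpin of squamous epithelium and macrophages. S100a9 lay closest to Sprr2f (0.49), Sprr2h (0.55) and the chemokine Ppbp (0.64). Ppbp read 0.449 and 0.0251 in KPAW I and II at 1 month, against 0.0122 and 0.0184 in wild type I and II, and 0.722 in KPAW I at 5 days. Sprr2 genes are near-identical copies, so their probe sets may share signal. Il1b lay closest to Serpinb2 (0.12), the neutrophil-attracting chemokine Cxcl2 (0.27) and Sult2b1 (0.28), a cholesterol sulfotransferase of skin. Ltf lay closest to Sprr2f (0.34), the epithelial adhesion molecule Epcam (0.41) and Serpinb2 (0.46).

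Slpi, Cxcl17, Lcn2 and Pglyrp1 had other neighbours. Slpi lay closest to Tmem87a (0.34), AW112010 (0.42) and Teddm3 (0.43). Cxcl17 lay closest to the trefoil peptide Tff1 (0.17), the protease inhibitor family member Wfdc5 (0.26) and the lipocalin Apod (0.26). Lcn2 lay closest to Pigr (0.44), the receptor that carries IgA across epithelia, Chad (0.47) and Il1f9 (0.52), an older symbol for the cytokine gene Il36g. Pglyrp1 lay closest to Cbr2 (0.64), Cyp2f2 (0.65) and Psca (0.87), all of which were bright at 1 month in both kinds of eye. Among the 8 themselves the closest pairs were S100a8 with S100a9 and S100a8 with Il1b (0.49 each), and S100a8 with Ltf (0.50).

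**Figure D3:**
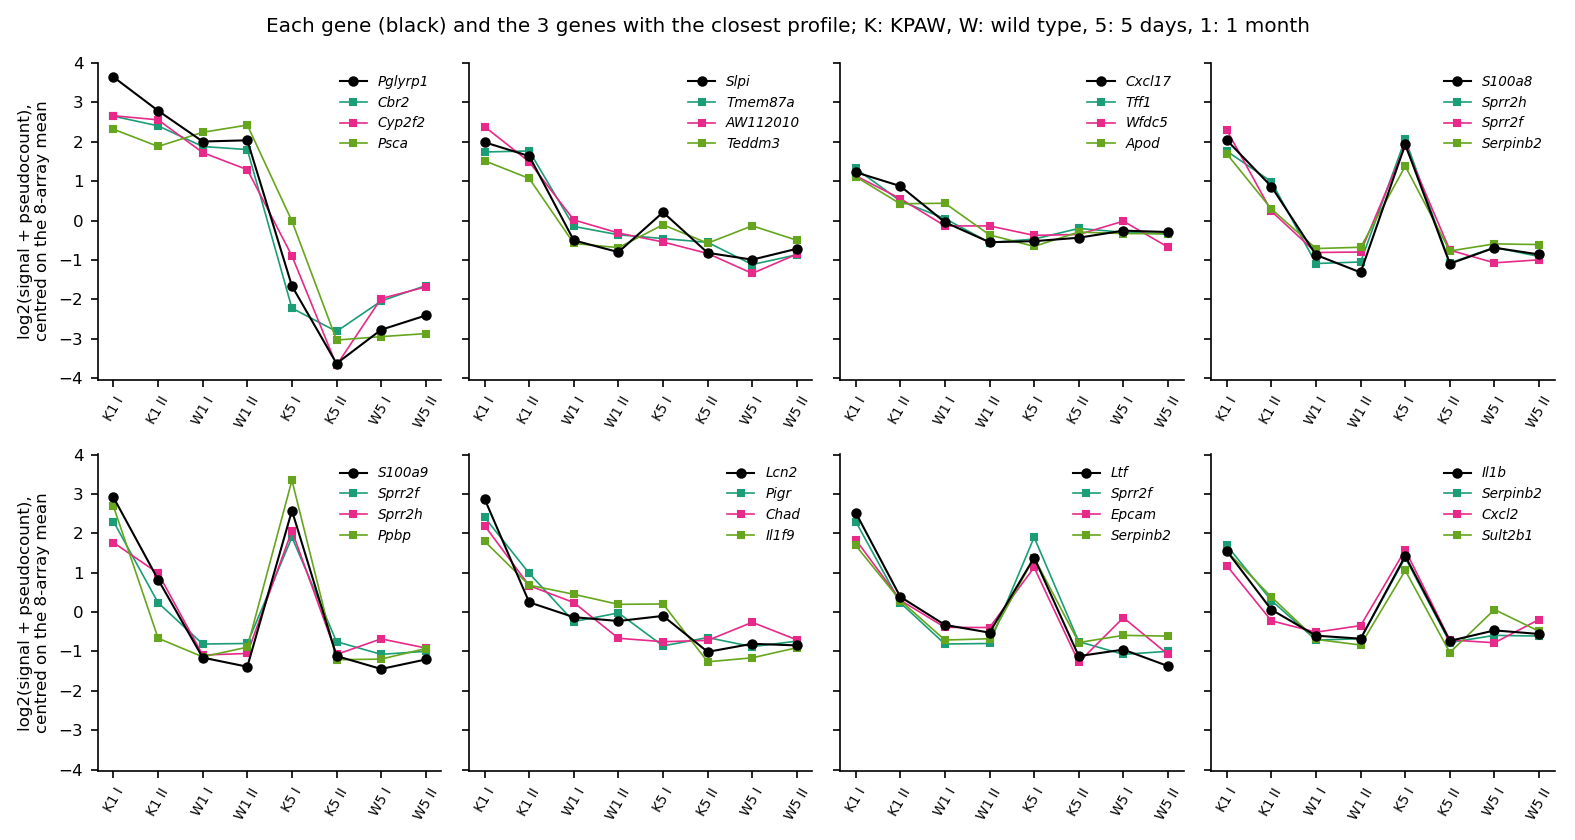
Profile of each of the 8 genes (black) and of the 3 genes closest to it (colours) as log2(signal + pseudocount) centred on the mean of the 8 arrays, with lines drawn only to join the points of a gene. S100a8, S100a9, Ltf and Il1b share peaks in KPAW I at both ages with their neighbours, Slpi and Cxcl17 are highest in the 1-month KPAW arrays, and Pglyrp1 separates the ages.

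Markers of other cell types were set beside these values, and in whole-eye RNA fewer cells of a type and less RNA per cell cannot be told apart. The 15 neutrophil markers on the array summed to 0.718 and 0.549 in KPAW I and II at 1 month, against 0.610 and 0.466 in wild type I and II. At 5 days they summed to 0.582 and 0.489 in KPAW eyes and 0.407 and 0.447 in wild-type eyes. Only 6 of the 15 were bright enough to be tested, and 3 to 5 were at the lowest listed value on each array. Sums of such dim markers say little about neutrophils. Of the 6 tested, 1 had both KPAW arrays above the wild-type pair at 1 month and 2 below, beside 17% and 19.6% of all probe sets. The median log2 difference of the 6 was 0.01, and none passed between KPAW and wild type. Camp, the cathelicidin of neutrophil granules, and Ctsg, cathepsin G, were each at the lowest listed value on 7 of the 8 arrays. The granule enzyme Mpo read 0.0749 and 0.0516 in KPAW I and II at 1 month, against 0.0821 and 0.0603 in wild type I and II. Csf3r, the receptor for granulocyte growth factor, read 0.119 and 0.0623 in KPAW I and II at 1 month, against 0.0456 and 0.00963 in wild type I and II, and 0.0688 in KPAW I at 5 days. The 11 macrophage markers summed to 1.83 and 1.35 in KPAW I and II at 1 month, against 1.20 and 1.13 in wild type I and II, with no marker passing the test between KPAW and wild type. Of the 8 tested, 6 had both KPAW arrays above the wild-type pair and 0 below, beside 17% and 19.6% of all probe sets. Their median log2 difference was 0.52. With age in wild-type eyes 2 of them, Mrc1 and Fcgr3, fell by 0.96 and 1.21 (limma adjusted p = 0.0109 and 0.022). At 5 days they summed to 1.51 and 1.29 in KPAW eyes and to 1.56 and 1.49 in wild-type eyes.

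The summed markers of keratinized epidermis and of conjunctiva were highest in the 1-month KPAW arrays, and those of corneal epithelium were not. The 11 keratinized epidermis markers summed to 27.3 and 14.6 in KPAW I and II at 1 month, against 5.53 and 5.50 in wild type I and II. At 5 days they summed to 9.61 and 0.977 in KPAW I and II, against 5.24 and 1.42 in wild type I and II. In KPAW I at 5 days 5 of the 10 tested markers lay more than 1 log2 unit above the wild-type mean, and their median was 1.00. Between KPAW and wild type at 1 month 1 of these markers passed, Rptn, which encodes the cornified envelope protein repetin (4.2, SE 0.34, limma adjusted p = 0.0269), and the median of the 10 was 4.27. Rptn read 0.833 and 0.364 in KPAW I and II at 1 month and no more than 0.0158 on the other 6 arrays. Those 6 lay under the minimum mean signal of 0.0406, so Rptn was tested only through its 1-month KPAW signals. Nothing is read from its pass. The 9 conjunctiva and goblet cell markers summed to 17.7 and 9.86 in KPAW I and II at 1 month, against 3.27 and 3.43 in wild type I and II. At 5 days they summed to 3.93 in KPAW I and to between 0.959 and 1.29 on the other 3 arrays. The mucosal keratins Krt4 and Krt13 read 1.40 and 1.26 in KPAW I at 5 days, against 0.0948 and 0.0932 in wild type I. In KPAW I at 5 days the sum of the list was high, but the rise did not run through the list. The median of its 8 tested markers was 0.02 log2 units above the wild-type mean. Of the 8, 3 lay more than 1 log2 unit above it, as did 1.34% of all probe sets tested. The 5 corneal epithelium markers ran the other way at 1 month, at 7.07 and 14 in KPAW I and II, against 20.3 and 22.6 in wild type I and II. The part of these tissues in the values of the 8 genes was not tested.

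**Figure D4:**
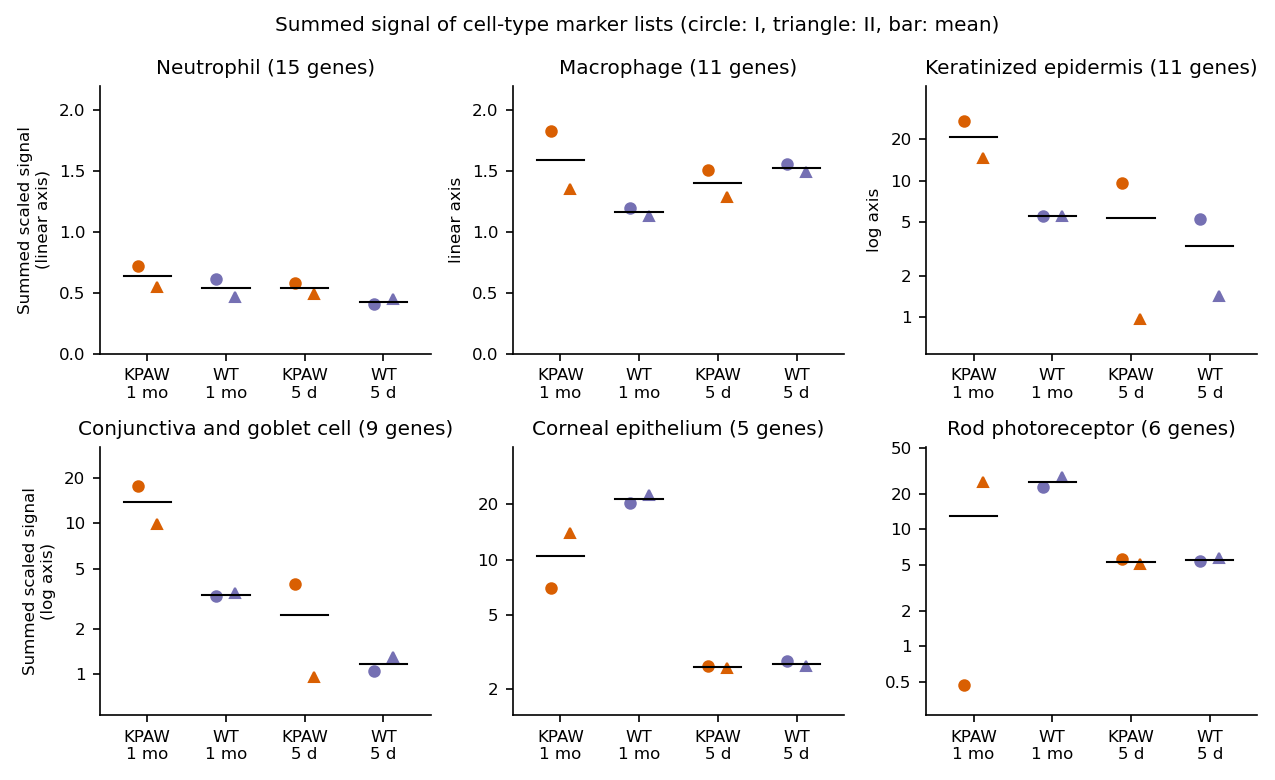
Summed scaled signal of 6 marker lists on the 8 arrays (circle for I, triangle for II, bar for the mean), on linear axes for neutrophil and macrophage markers and log axes for the rest. Neutrophil sums lie between 0.407 and 0.718, with 3 to 5 of the 15 markers at the lowest listed value on each array. Epidermis and conjunctiva sums are highest in the 1-month KPAW arrays, and among the 5-day arrays in KPAW I.

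Related genes were taken in 8 lists, which share 3 genes and hold 81 that were bright enough to be tested. None of the 81 passed between KPAW and wild type at 1 month or at 5 days. At 1 month 40 of the 81 lay higher in both KPAW arrays than in the wild-type pair and 2 lay lower, beside 17% and 19.6% of all probe sets, and their median log2 difference was 0.37, beside -0.01 for all. Of the 81, 8 passed the minimum mean signal only through the 1-month KPAW arrays, and without them 33 of 73 lay higher and 2 lower, with a median of 0.32. Secreted antimicrobial genes had a median of 0.45 over 15 genes, 10 of them with both KPAW arrays above, where 17% of all probe sets were. Of the 15, 2 passed the minimum mean signal only through the 1-month KPAW arrays. Without them 8 of 13 lay above and 1 below, with a median of 0.39. The lysozyme genes Lyz1 (1.02, SE 0.28) and Lyz2 (0.93, SE 0.19), the chitinase-like gene Chil1 (0.39) and the beta-defensin Defb1 (0.33) did not pass, with adjusted p between 0.407 and 0.736. For the beta-defensins Defb3 and Defb4 and the lectin Reg3g, named after their values were seen, the deposited signals in KPAW I and II at 1 month were 0.119 and 0.0901 (Defb3), 0.150 and 0.0575 (Defb4) and 1.32 and 0.0755 (Reg3g), and all 3 were listed at 0.01 in both wild-type arrays.

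Genes of the interleukin-1 family and its processing had a median of 0.55 at 1 month over 11 genes, with both KPAW arrays above for 9, where 17% of all probe sets were. Il36a (1.02, SE 0.37), Il36g (0.92, SE 0.49) and the inflammasome adaptor Pycard (0.77, SE 0.57) were among them without passing, and the alarmin Il33 differed by 0.37 (SE 0.42). Without 1 gene of the list that passed the minimum mean signal only through the 1-month KPAW arrays, 8 of 10 lay above. The median stayed at 0.55. Serine proteases and serpins had a median of 0.96 over 11 genes, with both KPAW arrays above for 8, but 4 of the 11 passed the minimum mean signal only through the 1-month KPAW arrays, and without them the median was 0.45, with 5 of 7 above. The kallikreins Klk10 (3.95, SE 0.77, adjusted p = 0.368) and Klk7 (2.58, SE 0.83, adjusted p = 0.675), proteases of shedding squamous epithelium, did not pass, and Klk10 was tested only through its 1-month KPAW signals, its other 6 arrays averaging 0.0331. The mast cell chymase Cma1 (0.37) and Serpinb1a (0.69), an inhibitor of neutrophil proteases, did not pass.

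The remaining lists had medians of at most 0.36, and the genes named from them had adjusted p of 0.675 or more at 1 month. Their counts with both KPAW arrays above stand beside 17% of all probe sets. Other S100 genes had a median of 0.24 over 10 genes, with 2 above, and S100a4 (0.83), S100a14 (0.32), S100a1 (0.20) and S100a6 (0.00) did not pass. Bacterial sensing genes had a median of 0.23 over 9 genes, with 2 above, among them the lipopolysaccharide co-receptor Cd14 (0.75) and the adaptor Myd88 (0.33), neither of which passed, nor did Lbp (0.40) or Tlr5 (0.29). Chemokines had a median of 0.29 over 10 genes, with 2 above, and Cxcl2 (0.91), Ccl4 (0.44), Ccl8 (0.44) and Cxcl16 (0.36) did not pass. Cxcl2 was tested only through its 1-month KPAW signals, and without it 1 of 9 lay above, with a median of 0.26. Receptors of the products of the 8 genes had a median of 0.28 over 6 genes, with 2 above and 1 below. The decoy receptor Il1r2 (0.52), Lrp1 (0.42), Il1rap (0.29) and Tlr4 (-0.26) did not pass. Acute phase and NF-kB response genes had a median of 0.36 over 12 genes, with 6 above, and Steap4 (1.11), Socs3 (1.04), Nfkbiz (0.41) and Tnfaip3 (-0.94) did not pass.

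**Figure D5:**
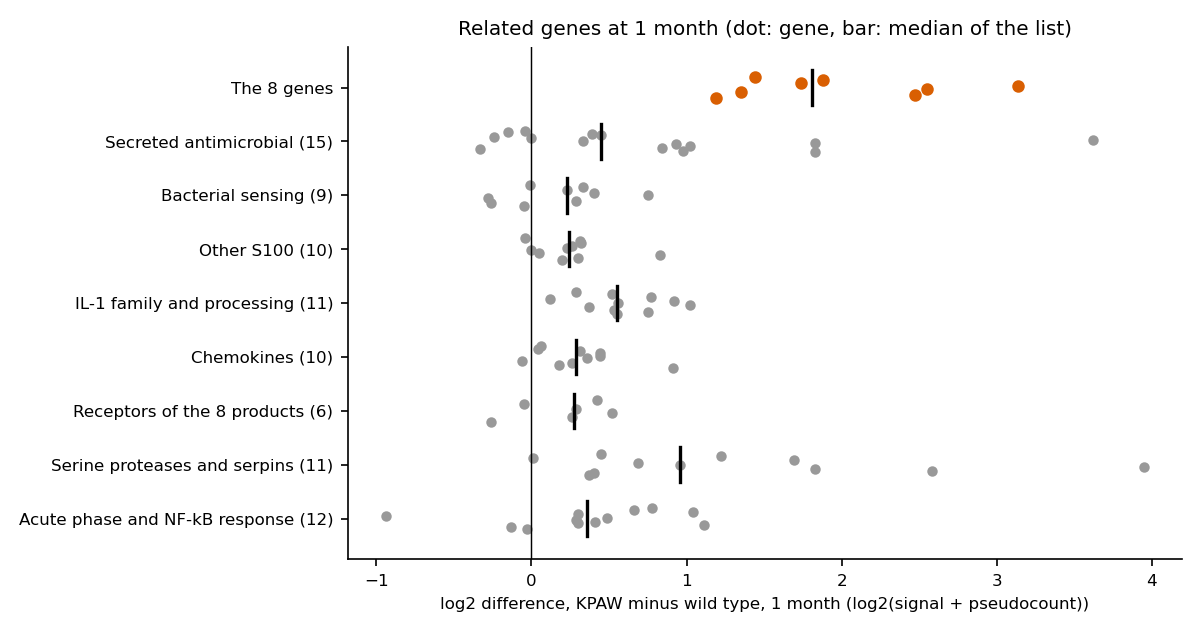
Log2 difference of KPAW minus wild type at 1 month for the 8 genes (top row, orange) and for the tested genes of 8 related lists (grey dots, number of genes in brackets), with a bar at each median. The medians of the lists run from 0.23 to 0.96, against 1.81 for the 8 genes, whose place follows from how they were chosen.

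With age in wild-type eyes 12 of the 81 related genes passed, 11 higher and 1 lower at 1 month. Of all probe sets 18.1% passed, 8.73% higher and 9.33% lower. As for Pglyrp1, age cannot be told apart here from the difference in Xist and Eif2s3y or from any difference in strain. Of the secreted antimicrobial genes 5 of 15 rose, among them Lyz1 (1.34, SE 0.28, adjusted p = 0.0154), Defb1 (0.85, SE 0.15, adjusted p = 0.00915), Chil1 (1.73, SE 0.30, adjusted p = 0.00854) and Lyz2 (0.69, SE 0.19, adjusted p = 0.046). S100a1 (1.09) and S100a6 (1.69) rose among 10 other S100 genes, with adjusted p of 0.00561 and 0.00808. Il33 (1.54, adjusted p = 0.0417), Serpinb1a (1.24, adjusted p = 0.0313, tested only through its 1-month KPAW signals), Nfkbiz (1.47, adjusted p = 0.0445) and Tnfaip3 (2.40, adjusted p = 0.0156), which encodes a brake on NF-kB signalling, also rose. Cma1 fell by 1.18 (adjusted p = 0.0111).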

How the data were processed

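Total RNA from mouse eyes was measured on 8 arrays in 4 groups of 2, grouped by the sample titles. The deposited values are 1 linear intensity per probe set and array, from 0.01 to 11.1, with a fixed lowest value of 0.01. The software and scaling with which the authors made them are not given in the sources used here. Gene symbols came from the platform annotation: 20380 probe sets carried 1 symbol, 691 several and 1555 none. After 64 control probe sets were left out, a trimmed mean (2% off each end) was computed per array and every array brought to the middle of the 8, by factors from 0.711 to 1.26. Signals were logged as log2(signal + 0.0211), with the 20th percentile of positive values as pseudocount, which understates changes of dim genes. Probe sets above the 30th percentile of mean signal were tested (15838, all 8 genes included). A limma model (3.58.1, R 4.3.3) with 4 group means and trended variances, leaving 4 residual degrees of freedom, was fitted, with Benjamini-Hochberg adjustment over the 15838 and calls under 0.05. Log2 differences are given with the model's SE. The number of arrays limits the precision.

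The 8 genes, the lists and the motifs were chosen with earlier results of these data known. Lists covered 259 genes, 225 of them on the array, by symbol or RefSeq synonym, and a gene was read from its brightest probe set. Related genes were named by a rule: up to 4 per list, called ones first, then those with the largest difference at 1 month. Markers were given as sums. Other scalings, pseudocounts, filters, fits and the leaving out of each array were run. Python 3.11.15, with pandas 2.3.3 for tables and matplotlib 3.10.9 for plots, was also used.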

Additional observations from a re-analysis of the deposited data

Results flagged for a closer look

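Cxcl17 drew attention because KPAW and wild-type eyes were ordered oppositely at the 2 ages. The KPAW pair was brighter than the wild-type pair at 1 month and dimmer at 5 days, with no overlap, and the log2 difference at 1 month exceeded that at 5 days by 1.56. This difference between the ages was not tested.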

How the results depend on the processing

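Pglyrp1 passed with age in wild-type eyes under every alternative run (log2 difference 3.95 to 5.05 under other settings, 4.43 to 4.80 with 1 array left out, adjusted p 3.62e-11 to 0.0233). It was the 1 gene of the 8 called there, except that with only the wild-type arrays fitted 2 were called, Ltf (0.74, adjusted p = 0.0415) being the other; leaving out an array kept the count at 1. None of the 8 passed between KPAW and wild type at 5 days under any alternative run. The median difference of the 8 at 1 month was 1.81, between 1.51 and 1.95 under other settings, and between 0.99 without KPAW I and 2.80 without KPAW II of that age. Without KPAW I at 5 days the 5-day difference turned to -0.22 for Il1b, -0.19 for Lcn2 and -0.32 for S100a8, and with 1 array left out the ranges ran to 1.93, 0.73 and 2.71. That of Pglyrp1 turned to 0.03 as deposited and 0.04 with the pseudocount at the 40th percentile, and ran from -1.04 to 0.93 with 1 array left out. Among differences with age that did not pass, Cxcl17 turned to 0.42 and Il1b to 0.25 as deposited, and with 1 array left out Cxcl17 ran from -0.28 to 0.23 and S100a9 from -0.07 to 0.17. Over all probe sets, calls at 1 month numbered 4, with 2 to 99 under other settings (99 as deposited, 19 with the contrast's groups alone) and 0 to 560 with 1 array left out (560 without KPAW II at 1 month). Calls at 5 days numbered 0, and 27 without KPAW II at 5 days. Calls with age numbered 2860, with 2585 to 3799 under other settings and 842 to 3697 with 1 array left out (842 without wild type I at 5 days). The cause of these shifts was not tested. The labels do not say what the numbers I and II stand for. Deviations of same-numbered arrays correlated at 0.31, 0.20 and 0.13 in 3 pairs of groups (both 5-day groups, KPAW at the 2 ages, and KPAW at 1 month with wild type at 5 days) and between -0.02 and 0.02 in the other 3, so pairing was not assumed. With the number as a replicate block, 13 probe sets were called at 1 month, 0 at 5 days and 2990 with age, the median of the 8 at 1 month was 1.81, and Pglyrp1 with age kept 4.61 (adjusted p = 0.00196). Averaging the probe sets of a gene was not run, since each of the 8 has 1. Lcn2 was too dim to be tested above the 50th percentile of mean signal and in 1 of the fits with an array left out. Signals of S100a8, S100a9 and Lcn2 near the lowest listed value limit what their ratios can show. Leaving out related genes tested only through the 1-month KPAW arrays, an alternative chosen after seeing the data, left 33 of 73 above in both KPAW arrays at 1 month, beside 40 of 81.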
